A study of Mus musculus with 4 samples.

Results

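The core pluripotency factors of mouse embryonic stem cells were followed across 4 two-colour arrays: Pou5f1 (which encodes Oct4), Sox2, Nanog, Sall4, Utf1, Foxd3 and Otx2. They were found by gene name among the non-control spots, as 17 spots of 8 probes, and all 7 were among the 21359 genes tested. Each array carried treated cells in Cy5 and reference cells in Cy3. The treated cells were ZHBTc4 cells given 2 µg doxycycline for 48 h, either alone (dox, 2 biological replicates, titled as the control in the labels) or together with TCP (dox+TCP, 2 biological replicates). The reference on every array was ZHBTc4 cells for which the labels name no treatment. TCP is not spelled out in the labels; in work on the histone demethylase LSD1, which the study's title names, it usually stands for tranylcypromine, an LSD1 inhibitor. All cells, reference included, are of 1 line, in which both copies of endogenous Pou5f1 are disrupted and a transgene that doxycycline switches off supplies Oct4. Every treated sample therefore had doxycycline and the shut-off together, and the effects of the drug, of the shut-off and of other culture differences from the reference cannot be told apart. The cells had been kept on irradiated fibroblast feeders before 2 passages on gelatin. The arrays measured bulk RNA, so fewer cells that express a gene and less RNA per cell cannot be told apart.

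Oct4, a POU-domain protein, and Sox2, an HMG-box protein, bind DNA side by side at a composite element and together keep embryonic stem cells undifferentiated. They act on their own genes, on Nanog, which stabilises self-renewal, and on Utf1, a chromatin-associated factor. Sall4, a zinc-finger protein, and Foxd3, a forkhead protein, sustain the same state, while Otx2, a homeobox protein, directs the exit from the naive state toward the formative epiblast. When Oct4 is withdrawn, embryonic stem cells are known to turn toward trophoblast.

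The windows before the first annotated start of the 3 factors that give the network its name are shown, because the letters that Oct4 and Sox2 recognise lie in them to different degrees. Each is the 250 bases upstream of the start, 5′ to 3′ on the gene's plus strand, from RefSeq (GRCm38.p6): chr17:35505782-35506031 for Pou5f1, chr3:34649745-34649994 for Sox2 and chr6:122707239-122707488 for Nanog. Capitals mark a GC box (GGGCGG) and a nuclear receptor half-site (AGGTCA) in Pou5f1, the octamer core (ATGCAAA) in Sox2, and a composite of a Sox motif and an octamer start (CATTGTNATGC, on the minus strand) in Nanog.
Pou5f1: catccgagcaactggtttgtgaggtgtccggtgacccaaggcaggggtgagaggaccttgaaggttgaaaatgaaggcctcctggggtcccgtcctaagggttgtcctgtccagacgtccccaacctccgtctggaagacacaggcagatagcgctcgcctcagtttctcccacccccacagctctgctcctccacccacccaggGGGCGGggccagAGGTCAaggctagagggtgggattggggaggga
Sox2: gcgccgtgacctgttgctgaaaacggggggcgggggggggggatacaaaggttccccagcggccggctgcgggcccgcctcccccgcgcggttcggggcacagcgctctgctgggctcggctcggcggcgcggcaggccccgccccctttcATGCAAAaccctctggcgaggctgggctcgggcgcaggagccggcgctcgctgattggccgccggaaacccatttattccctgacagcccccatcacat
Nanog: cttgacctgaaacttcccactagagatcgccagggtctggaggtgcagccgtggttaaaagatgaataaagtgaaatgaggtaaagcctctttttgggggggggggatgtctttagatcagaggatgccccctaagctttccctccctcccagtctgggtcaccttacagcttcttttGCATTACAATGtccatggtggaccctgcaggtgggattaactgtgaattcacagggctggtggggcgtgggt
In Nanog the composite spans bases −72 to −62 from the start. It was found in 19 of 32851 windows of this length in the table (0.0578%), searched on both strands. The Sox motif alone (CATTGT) was in 10.7% of windows, the octamer core in 4.12% and the whole octamer (ATGCAAAT) in 1.60%. The composite contains the Sox motif and overlaps the octamer core, which Nanog holds at −75 to −69. Sox2 holds the octamer core at −99 to −93, 2 GC boxes and 1 half-site, which are not capitalised. The Pou5f1 matches lie at −45 to −40 and −33 to −28; GC boxes were in 32.7% and half-sites in 14.0% of windows. In the Utf1 window 4 GC boxes were found, and in those of Foxd3 and Otx2 none of these letters. Windows matched 6 of the 7 genes. The letters searched were chosen with these windows in view, and a match describes the letters only.

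After 48 h of doxycycline, all 7 factors were lower than in the reference. Pou5f1, Foxd3 and Sox2 fell most, to between 8.85% and 13.7% of the reference, Otx2 and Utf1 to 25.9% and 31.3%, and Nanog and Sall4 to 46.8% and 65.6%. By limma's moderated test, 7 of 7 were called lower at an adjusted p under 0.05, where 8.26% of all genes tested were called lower and 6.33% higher. The median log2 ratio of the 7 was −1.95, against −0.0008 over all genes. Each value below is a log2 ratio of treated over reference, so −1 is a halving; errors on group means are limma standard errors with n = 2 arrays. Adjusted p-values are limma's with Benjamini-Hochberg adjustment over all genes.

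**Figure D1:**
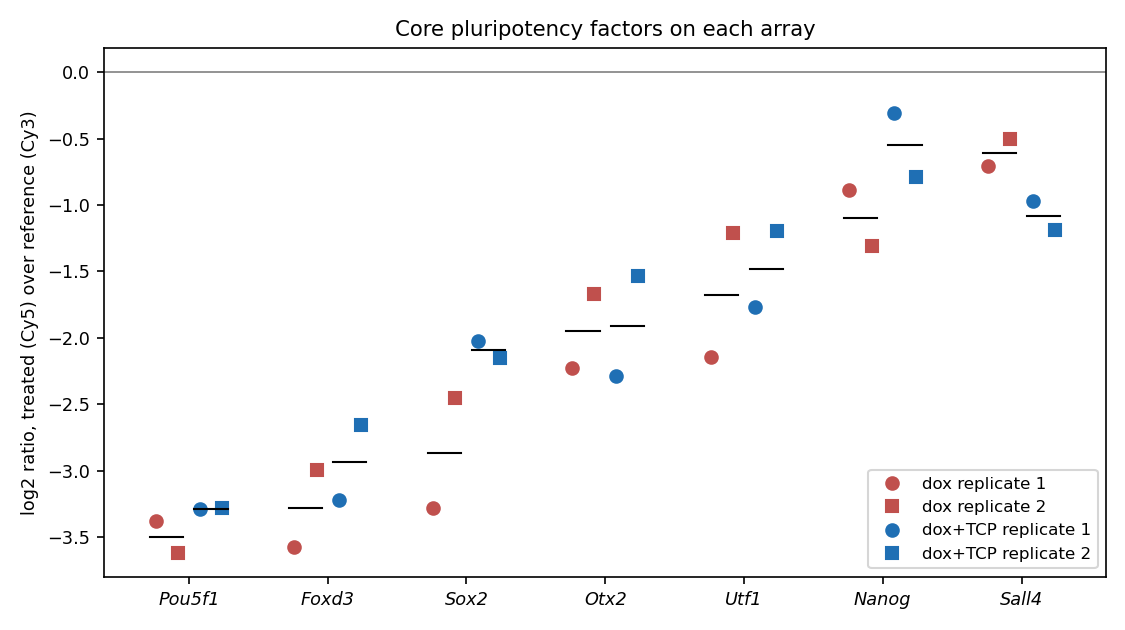
Log2 ratio of treated cells (Cy5) over reference (Cy3) for each factor on each of the 4 arrays, with red for dox, blue for dox+TCP, circles for replicate 1, squares for replicate 2 and a bar at each group mean. Every point lies below 0, from −3.62 for Pou5f1 to −0.31 for Nanog.

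Pou5f1, the gene whose supply was shut off, stood at −3.38 and −3.62 on the dox arrays and at −3.29 and −3.28 on the dox+TCP arrays. All 4 values lie in a narrow band far below 0, as the labels require of a shut-off of this gene. With dox the mean was −3.50 ± 0.10 (adjusted p = 0.0105), the 20th lowest of the 21359 genes. With dox+TCP it was −3.29 ± 0.10 (adjusted p = 0.0147). The probe (A_51_P202340, NM_013633) lies at chr17:33612047-33612107 in the mm7 coordinates of the files.

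Sox2, the partner of Oct4 on composite elements, read −3.28 and −2.46 with dox and −2.03 and −2.15 with dox+TCP. The dox arrays differed from each other by more than the dox+TCP arrays did, and dox replicate 1 was the lowest of the 4. The dox mean was −2.87 ± 0.23 (adjusted p = 0.0164) and the dox+TCP mean −2.09 ± 0.23 (adjusted p = 0.0219). In share of the reference this is 13.7% with dox and 23.5% with dox+TCP. Its probe (A_52_P307739, NM_011443) lies at chr3:34459231-34459290 in mm7.

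Nanog, whose upstream window holds the composite shown above, read −0.89 and −1.31 with dox and −0.31 and −0.79 with dox+TCP. Both dox+TCP arrays lie nearer to 0 than both dox arrays. The dox mean was −1.10 ± 0.18 (adjusted p = 0.0384). The dox+TCP mean of −0.55 ± 0.18 did not pass (adjusted p = 0.133), and its 95% interval ran from −1.06 to −0.04. Nanog thus remained at 46.8% of the reference with dox, where Sox2 was at 13.7%. The Nanog probe (A_51_P294233, AK010332) lies at chr6:122750894-122750953 in mm7.

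Foxd3, the forkhead factor, read −3.57 and −3.00 with dox and −3.22 and −2.65 with dox+TCP. The groups overlap, and replicate 1 was lower in each. The means were −3.28 ± 0.22 (adjusted p = 0.0149) and −2.94 ± 0.22 (adjusted p = 0.0169). Its treated signal was dim (161 to 193 in Cy5 as scanned). The scanner's own background-subtracted ratios put it deeper, at −4.07 with dox and −3.57 with dox+TCP. With local backgrounds as read it was shallower, at −1.55 with dox and −0.94 with dox+TCP. The probe (A_51_P286423, NM_010425) lies at chr4:99050943-99051002 in mm7.

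Otx2, the factor of the formative epiblast, read −2.23 and −1.67 with dox and −2.29 and −1.54 with dox+TCP. The replicates differ by more than the groups. Its probe (A_52_P49080, NM_144841, chr14:43989807-43989866 in mm7) was printed as 10 spots, whose log2 ratios had an SD of 0.10 to 0.14 within an array. Spot noise within an array was therefore smaller than the gap between replicates. The means were −1.95 ± 0.25 (adjusted p = 0.0275) and −1.91 ± 0.25 (adjusted p = 0.0271). The treated signal was near background: on dox+TCP replicate 2 only 1 of the 10 spots was well above it in Cy5, against 10 of 10 on each other array. The scanner's ratios were deeper here too, at −3.12 with dox and −3.47 with dox+TCP. With local backgrounds as read, the ratios were shallower, at −0.81 with dox and −0.28 with dox+TCP. The size of the Otx2 fall therefore depends on the background step while its direction does not.

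Utf1, a chromatin factor and Oct4-Sox2 target, read −2.15 and −1.21 with dox and −1.76 and −1.20 with dox+TCP. Its arrays spread widely and the groups overlap. The dox mean of −1.68 ± 0.29 passed narrowly (adjusted p = 0.0425), and the dox+TCP mean of −1.48 ± 0.29 narrowly did not (adjusted p = 0.0516). The Utf1 probe (A_51_P237206, NM_009482) lies at chr7:136358008-136358067 in mm7.

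Sall4, the zinc-finger factor, was read by 2 probes that differed. The brighter one, which stands for the gene (A_51_P349087, annotated with the clone AK017633, chr2:168541487-168541546 in mm7), read −0.71 and −0.51 with dox and −0.97 and −1.19 with dox+TCP. Both dox+TCP arrays lie below both dox arrays. Its means were −0.61 ± 0.11 (adjusted p = 0.0442) and −1.08 ± 0.11 (adjusted p = 0.0203). The other probe (A_51_P145260, annotated with transcript variant b, NM_201395, chr2:168545326-168545385 in mm7) read −0.25 and −0.05 with dox and −0.06 and 0.16 with dox+TCP. In the fit over all probes it passed in neither comparison (−0.15, adjusted p = 0.426, and 0.05, adjusted p = 0.779). The call for Sall4 therefore rests on 1 of its 2 probes.

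**Figure D2:**
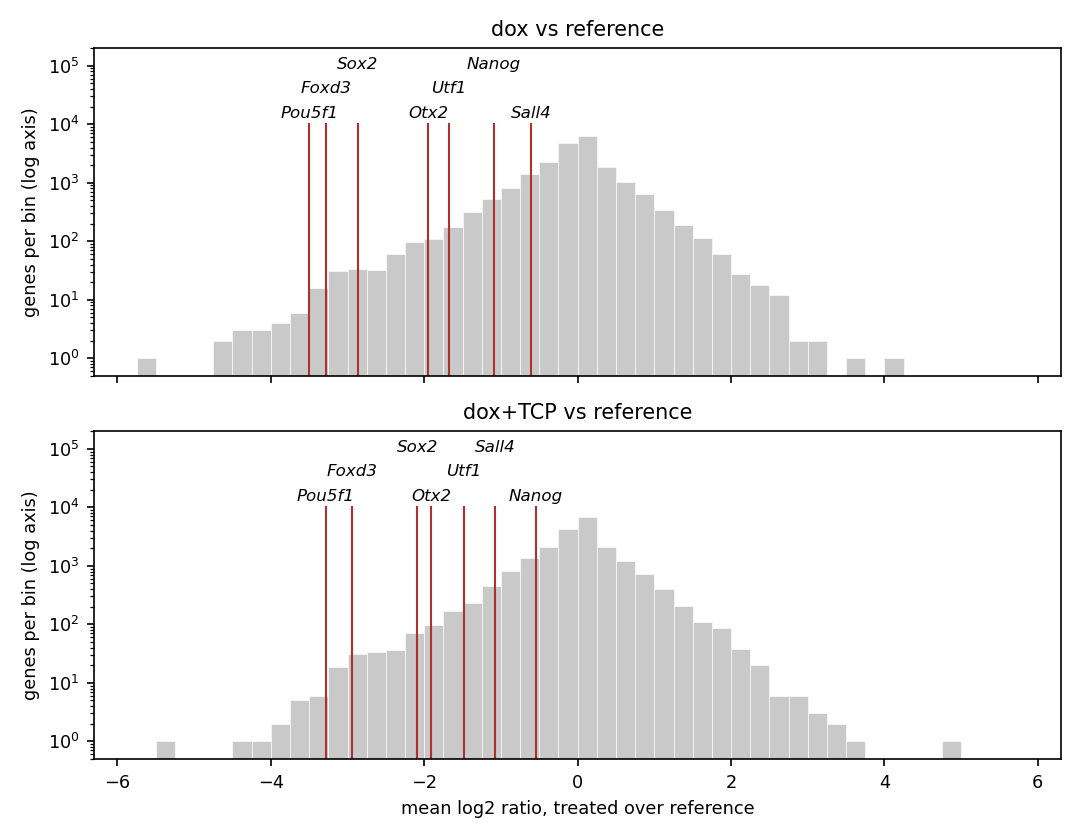
Distribution of the mean log2 ratio over all 21359 genes (grey bars, bins of 0.25, log axis for the number of genes) for dox and for dox+TCP against the reference, with a red line at each factor. Pou5f1, Foxd3 and Sox2 lie in the sparse left tail in both panels, and Sall4 and Nanog lie where many genes are found.

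With dox+TCP, 5 of 7 factors were called lower than the reference, where 8.09% of all genes were called lower and 7.32% higher; Nanog and Utf1 were the 2 that did not pass. The median of the 7 was −1.91, against 0.03 over all genes. Both comparisons use the same kind of reference and the fit shares its spread over all 4 arrays, so they are given side by side and their calls are not counted against each other. In the order of the dox means (Pou5f1, Foxd3, Sox2, Otx2, Utf1, Nanog, Sall4), neighbours whose 2 arrays did not overlap were Sox2 and Otx2, and Nanog and Sall4. The other neighbours overlapped. In the dox+TCP order Sall4 lay below Nanog, and those 2 did not overlap (Sall4 −0.97 and −1.19, Nanog −0.31 and −0.79).

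The calls against the reference rest on the spread estimated from all 4 arrays. With local backgrounds as read, with scan day as a block, or with dox+TCP replicate 1 or 2 left out, 0 of 7 factors were called in either comparison, and with the dox arrays fitted alone 0 of 7 for dox; every factor stayed below 0 in all 18 alternatives. Without dox replicate 1, Utf1 and Sall4 lost the dox call (adjusted p = 0.0526 and 0.0990), and without dox replicate 2, Nanog and Sall4 did (0.0882 and 0.0681). With dox replicate 1 or dox replicate 2 left out, Utf1 passed for dox+TCP (adjusted p = 0.0170). When arrays were centred on their medians instead of by loess, the median over all genes was 0.18 with dox. Nanog was then at −0.53, Utf1 at −1.13 and Sall4 at −0.04, and none of those 3 passed (adjusted p = 0.0790, 0.0562 and 0.864). Sall4 also lost its dox call, leaving 6 of 7, with the scanner's ratios and with the deposited matrix (−0.50, adjusted p = 0.118 in each) and with the mean of its 2 probes (−0.38, adjusted p = 0.0674). Utf1 passed for dox+TCP in 8 of the 18 alternatives.

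The comparison of dox+TCP with dox addresses what TCP adds while Oct4 is shut off. No factor was called, and neither was any other gene: 0 of 21359 (0% called) by limma at an adjusted p under 0.05, with 935 at an unadjusted p under 0.05 (4.38%). Sox2 was 0.78 ± 0.32 higher with TCP (95% interval −0.14 to 1.69, unadjusted p = 0.0766) and Nanog 0.55 ± 0.25 higher (−0.17 to 1.27, unadjusted p = 0.1). For Foxd3 the difference was 0.35 (−0.53 to 1.23), for Pou5f1 0.21 (−0.18 to 0.60), for Utf1 0.20 (−0.97 to 1.37) and for Otx2 0.04 (−0.97 to 1.05). Sall4 was 0.47 ± 0.15 lower with TCP as measured (log2 difference −0.47, interval −0.90 to −0.04), the only one of the 7 with an unadjusted p under 0.05 (0.0395). Each had a limma adjusted p of 0.996. The second Sall4 probe differed the other way, by 0.21 (limma adjusted p = 0.999).

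**Figure D3:**
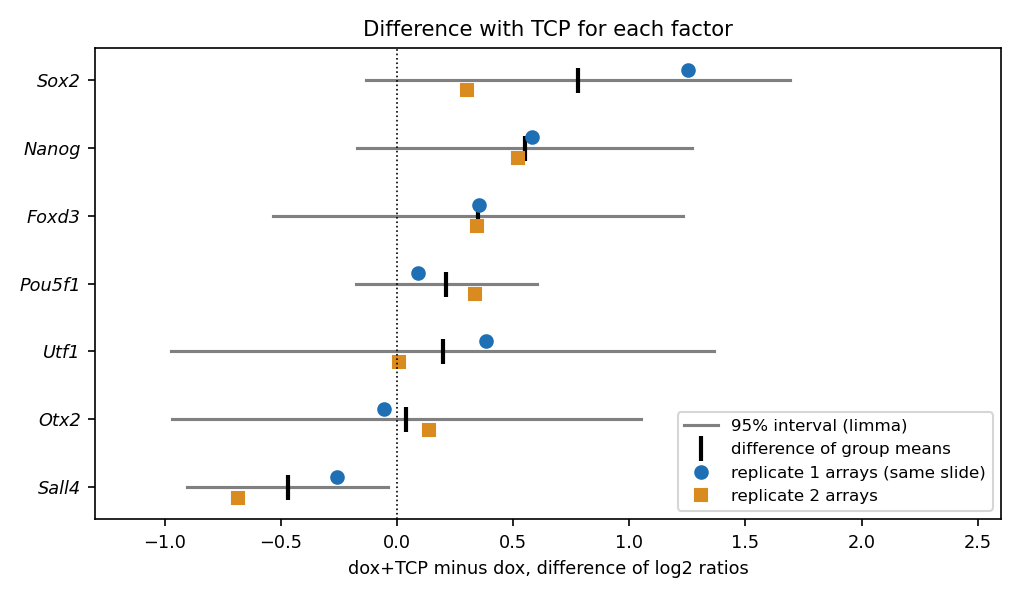
Difference in log2 ratio between dox+TCP and dox for each factor: the black mark is the difference of the group means, the grey line its 95% limma interval, the blue circle the difference between the replicate 1 arrays (same slide) and the orange square that between the replicate 2 arrays. Only the interval of Sall4 leaves out 0 (before adjustment), and the 2 Sox2 points lie far apart, at 1.25 and 0.30.

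For 4 of the 7 factors the dox+TCP arrays did not overlap the dox arrays: Pou5f1, Sox2 and Nanog were higher and Sall4 lower. Over all genes, 33.1% did not overlap, 20.2% with dox+TCP higher and 12.9% lower. The gap between the nearest arrays of the 2 groups was 0.30 for Sox2, 0.26 for Sall4, 0.10 for Nanog and 0.09 for Pou5f1. The replicate 1 arrays shared slide 1, and within that slide Sox2 differed by 1.25, a rise larger than all but 0.187% of genes showed there. Between the replicate 2 arrays, which lay on separate slides scanned on different days, Sox2 differed by 0.30, and 21.3% of genes rose more. Nanog differed by a like amount in both, 0.58 and 0.52, with 4.04% and 12.6% of genes rising more. The Sox2 difference was 1.19 without dox replicate 2 and 0.36 without dox replicate 1, and with local backgrounds as read it was 0.04.

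The intensities of each channel show which side of a ratio varied. They are normalized log2 levels, comparable between arrays for 1 probe and not between probes. On slide 1 the Sox2 reference was the same on both arrays (12.57 and 12.57), and the treated level was 9.29 with dox and 10.54 with dox+TCP. In the replicate 2 arrays the treated level was 9.98 and 10.82, a rise of 0.85, but the reference on the same arrays was 12.43 and 12.98. The ratio therefore rose by only 0.30 there. Nanog treated levels were 11.19 and 11.35 with dox and 11.81 and 11.59 with dox+TCP. Both dox+TCP levels were above both dox levels, for Nanog as for Sox2. For Sall4 both were below, and for Pou5f1, Foxd3, Otx2 and Utf1 the treated levels of the groups overlapped. The share of all genes whose treated levels do not overlap was not computed.

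**Figure D4:**
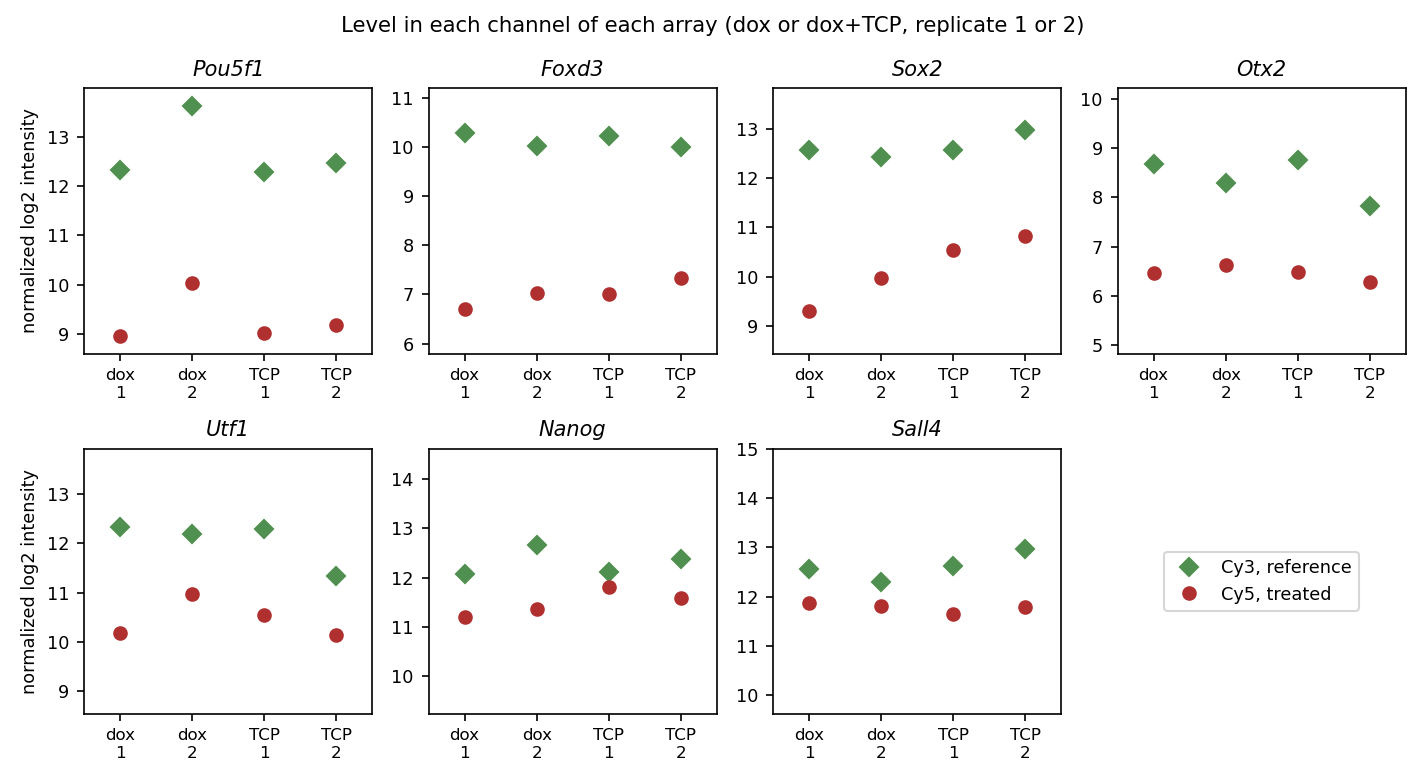
Normalized log2 intensity of the reference (Cy3, green diamonds) and the treated cells (Cy5, red circles) for each factor on each array; each panel spans the same number of log2 units, and levels of different panels are not to be compared. The reference is stable between the replicate 1 arrays and moves on the replicate 2 arrays, most for Pou5f1 on dox replicate 2 (13.64, against 12.29 to 12.47 on the other 3).

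The reference itself was not constant. Pou5f1 in the reference read 12.33, 13.64, 12.29 and 12.47 on dox replicates 1 and 2 and dox+TCP replicates 1 and 2. Dox replicate 2 was the highest in both channels (Cy5 10.02, against 8.95 to 9.19 on the other 3), so its ratio was like the others. Only 1.86% of genes had a reference level that ranged more widely over the arrays than that of Pou5f1; the median range was 0.40. Otx2 was lower in the reference of the replicate 2 arrays by 0.66 on average, Utf1 by 0.55 and Foxd3 by 0.25. These 3 had the shallower ratios on those arrays. Their treated levels differed there by −0.01 for Otx2, 0.20 for Utf1 and 0.32 for Foxd3 on average. For Utf1 with dox the reference differed by −0.14 and the treated level by 0.80. With dox+TCP the Utf1 values were −0.97 and −0.40. What made these ratios shallower was not tested. Of the 11 formative and primed epiblast genes tested, 9 were lower in the reference of the replicate 2 arrays, with a median of −0.65. On the replicate 1 arrays the reference of each of the 7 differed by at most 0.07 between dox and dox+TCP.

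Of the markers of other cell types, those of trophoblast differed clearly between the references of the replicate 1 and replicate 2 arrays. The part of any of these markers in the factors' results was not tested. Trophoblast markers were brighter in the reference of the replicate 2 arrays for 16 of 19 genes, with a median of 1.11. Their summed reference level was 15.56 and 15.63 (log2) on the replicate 1 arrays and 17.79 and 17.89 on the replicate 2 arrays. In the treated cells the sum was 18.95 and 18.64 with dox and 18.41 and 18.53 with dox+TCP. Of the 19 genes 1 was called higher with dox, the homeobox gene Msx2 (2.21), and 2 with dox+TCP, Msx2 (1.89) and Id2 (0.97). In either channel 0 of them were below background on all 4 arrays in either channel. Among them Cdx2, which specifies trophectoderm, read 3.39 and 0.73 with dox, so replicate 1 was much higher, and 2.87 and 0.17 with dox+TCP, again with replicate 1 the higher. Fibroblast markers of feeder cells summed to 14.83 to 15.39 in the reference. In the treated cells their sum was 14.40 and 14.41 with dox and 14.94 and 14.98 with dox+TCP. It was higher with TCP and the groups did not overlap. This was not particular to fibroblast markers. Treated sums of the mesoderm, wider pluripotency and Oct4-Sox2 target lists, described below, were also higher with TCP without overlap. Those of the trophoblast markers were lower without overlap. How often sums of other genes do so was not computed. Of the 15 fibroblast markers 4 fell with dox (Thy1, Twist1, S100a4 and Vim) and 0 rose. With dox+TCP 2 fell (Thy1 and Twist1) and 1 rose (Pdgfrb, 1.15, limma adjusted p = 0.0488). Between dox+TCP and dox the differences were 0.99 for S100a4, 0.83 for Vim and 0.77 for Thy1, and 0 of the 15 were called (limma adjusted p = 0.996 for each of these 3). These 3 were the largest rises of the list. Fn1 (−0.27), Acta2 (−0.22), Dcn (−0.05) and Twist1 (−0.02) differed the other way. The median difference of the 15 was 0.08, against 0.04 over all genes. In either channel 0 of the 15 were below background on all 4 arrays. Of the 13 primitive endoderm markers 3 rose with dox, the basement membrane genes Col4a1, Col4a2 and Lamb1. Their list had a median of 0.30 with dox. Afp (−1.13), Sox7 (−1.01), Lama1 (−0.50) and Sparc (−0.06) lay below 0 and did not pass. Gata4 (0.07) and Gata6 (0.17) did not pass either. Of 10 neuroectoderm genes 3 fell with dox (Gbx2, Pax6 and Tubb3), and of 10 mesoderm and primitive streak genes 1 rose (Tbx6). Of all genes, 8.26% were called lower and 6.33% higher with dox, and 8.09% and 7.32% with dox+TCP. The single calls among trophoblast and mesoderm genes with dox lie near that background in number. The 2 lists differed in size of ratio. The trophoblast median was 1.185 with dox and 0.97 with dox+TCP, against −0.0008 and 0.03 over all genes. Replicates of Krt18 (4.75 and 1.44 with dox) differed widely, as those of Cdx2 did. The mesoderm median with dox was −0.06.

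The other genes of the network mostly fell with the factors. In a wider pluripotency list, 27 of 42 tested genes fell with dox and 2 rose, with a median of −1.46. Over all genes 8.26% were called lower and 6.33% higher. With dox+TCP 22 fell and 3 rose, with a median of −1.25, where 8.09% of all genes were called lower and 7.32% higher. With arrays centred on their medians the counts were 20 lower and 8 higher with dox (median −0.94) and 18 lower and 5 higher with dox+TCP (median −0.75). Of all 21359 genes, that centring called 1130 lower and 4876 higher with dox, and 1103 lower and 3997 higher with dox+TCP. The 8 higher with dox lie near that background. The smallest unadjusted p-values with dox were those of Nr0b1, an orphan nuclear receptor (−5.75), Tdh, a threonine dehydrogenase (−4.03), Nodal, a TGF-beta family ligand (−2.62), and Nr5a2, a nuclear receptor that can act on the Oct4 gene (−2.33), each with a limma adjusted p of 0.0105, which Tdgf1 (−3.42) and Gdf3 (−2.44) shared. With dox+TCP they were those of Nr0b1 (−5.26), Tdh (−3.51), the Nodal co-receptor Tdgf1 (−3.52) and the ligand Gdf3 (−2.33), with limma adjusted p-values of 0.0147 to 0.0158; Nodal (−2.17) shared the last. The genes that rose with dox were Thap11 (0.72) and Sall1 (0.47), and those that rose with dox+TCP were Klf2 (1.06), Tfcp2l1 (1.00) and Zfp143 (0.89); these 5 were chosen after their values were seen. As for the factors, 0 of the 42 were called in either comparison with local backgrounds as read, with scan day as a block or with dox+TCP replicate 1 or 2 left out, and with the dox arrays fitted alone 0 for dox.

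A narrower list holds genes with known Oct4-Sox2 elements, of which 8 were tested, Pou5f1, Sox2, Nanog and Utf1 included. All 8 fell with dox, with a median of −2.42, where 8.26% of all genes were called lower. With dox+TCP 4 passed, all lower, with a median of −1.50, where 8.09% of all genes were called lower. Among the others, Fbxo15, an F-box protein, read −1.75 and −2.21 with dox and −0.62 and −0.78 with dox+TCP. Its groups lie well apart, and its difference of 1.28 ± 0.21 was not called (limma adjusted p = 0.996). Lefty1, a Nodal antagonist, stood at −3.24 with dox and −3.26 with dox+TCP, and Zscan10, a zinc-finger factor, at −1.78 and −1.52; neither difference was called. Spp1, a secreted phosphoprotein, stood at −3.17 with dox and −1.42 with dox+TCP, a difference of 1.75 ± 0.55 that was not called either (limma adjusted p = 0.996).

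Of 11 formative and primed epiblast genes, Otx2 included, 6 fell and 0 rose in each comparison, with medians of −1.84 with dox and −1.73 with dox+TCP. Pou3f1, the POU factor Oct6, stood at −2.09 and −1.92 in the comparisons of dox and of dox+TCP with the reference, and Lef1, a Wnt pathway factor, at −2.95 and −2.93. The de novo methyltransferase Dnmt3b did not pass with dox (0.49, limma adjusted p = 0.0586). Among 30 relatives of the factors (POU, SOX, SALL, FOXD and OTX families), 4 fell and 1 rose with dox and 4 fell and 0 rose with dox+TCP. The median was −0.09 with dox. Those that fell with dox were Pou3f1, Sall3 (−2.33), Pou3f3 (−1.32) and Pou4f1 (−0.75), and Sall1 rose. Over all genes 8.26% were called lower and 6.33% higher with dox, and 8.09% and 7.32% with dox+TCP. The 30 relatives as a group lie near that background.

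The genes whose 4 ratios lay nearest to those of a factor were found by Euclidean distance over the 4 arrays, as a description. For Pou5f1 they were Slc7a3 (0.35), an amino acid carrier, Maats1 (0.39) and Spry2 (0.50), an inhibitor of growth factor signalling. Slc7a3 read −3.54, −3.62, −3.49 and −3.05 on dox replicates 1 and 2 and dox+TCP replicates 1 and 2. For Sox2, Pipox (0.43) and Kbtbd11 (0.46) lay nearest, each with its lowest ratio on dox replicate 1, as Sox2 had. For Nanog they were Myo18b (0.18), Fam81a (0.30) and Zap70 (0.35). For Otx2 they were Abi3 (0.21), Dlgap3 (0.24) and Pou3f1 (0.26), the last from the same epiblast list; each was lower on the replicate 1 array of each group, as Otx2 was. Such likeness over the arrays follows from how these genes were picked and is no separate result.

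The composite letters shown for Nanog were followed to the other genes that hold them upstream. The 19 windows belong to 17 genes, of which 7 were tested. With dox 2 of the 7 fell, Nanog and Ak1, which encodes adenylate kinase (−1.75, limma adjusted p = 0.0205), and 0 rose, where 8.26% of all genes were called lower. Nanog is the gene that prompted the search, and the median of the 7 was −0.06, near that of all genes. Of the 2, Ak1 read −2.04 and −1.45 with dox and −0.90 and −1.06 with dox+TCP, so its groups did not overlap either. The same held for 33.1% of all genes, 20.2% with dox+TCP higher.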

How the data were processed

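RNA from 4 two-colour Agilent arrays was analysed, with Cy5 for treated and Cy3 for reference cells and no dye swap, per the labels. Spot and background intensities and log10 ratios were made by the authors with Agilent Feature Extraction 10.1.1.1 on mm7 (NCBI35), per the file headers and the submitters' processing notes. The authors' deposited matrix matched those log10 ratios within 0.005, with column medians of 0, 0.0111, 0 and 0, so its scale and direction are settled. Other columns used, names and flags for background and outliers, are as deposited by the authors. Other upstream steps: not given in the sources used here.

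From the intensities, limma (3.58.1, R 4.3.3) applied normexp (offset 50) and loess within arrays, with 1639 control spots at weight 0 and then left out. A local background more than 2 times its array's median was set to that median, a limit taken from earlier work on these data. Spots of 1 probe were averaged. Tested were the 31022 of 41174 probes with a value on every array and a signal well above background, either in Cy5 on both arrays of dox or dox+TCP, or in Cy3 on all 4. The brightest probe stood for a gene. Symbols were updated through RefSeq's GRCm38.p6 table, used for names (22951 probes by accession, 6659 by symbol, 3109 by synonym, 8455 kept). No non-control spot was saturated (0). Group means over 4 arrays were fitted (2 residual and 1.79 prior degrees of freedom), with eBayes and Benjamini-Hochberg adjustment at 0.05. Channel levels were taken after Aquantile scaling between arrays. The fit was tested on simulated data with 200 of 21359 genes changed, for dox against the reference. It recovered 0% of them at a log2 change of 1, 92% at 2 and 98.5% at 3. Of the genes called, 6.12% at a change of 2 and 5.74% at 3 were false. In the data 3117 genes were called with dox, many more than the 200 changed there. The simulated shares therefore do not give the recovery in the data.

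The number of arrays limits precision: the median standard error was 0.114 for a group and 0.161 for the difference. Median Cy5 signals were 213 to 249 against backgrounds of 53.5 to 60.0, and 68.8% to 78.1% of spots were well above background per channel. No dye swap means that gene-specific dye bias remains in comparisons with the reference and cancels between the groups. Each array carried the reference in its own Cy3 channel and the fit used the ratios, so the spread of the reference is not estimated apart.

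Members and gene lists were chosen with earlier results of these data known. Named are all 7 factors with every probe, up to 4 genes per list and comparison by adjusted p (ties by unadjusted p), and the 3 nearest genes to Pou5f1, Sox2, Nanog and Otx2, except a few not reported here; others are named where a count of 5 or fewer or a marker is described. Of 45 wider pluripotency names 3, and of 9 Oct4-Sox2 targets 1, were not analysed here. No mm7 annotation was used, so exons and UTRs are not given. Alternatives were other background steps, median centring, Aquantile, the scanner's ratios, the deposited matrix, no filter, the mean of a gene's probes, a group's arrays alone, a replicate block, a scan-day block and leaving out each array.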

Additional observations from a re-analysis of the deposited data

How the results depend on the processing

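Over 18 alternatives each factor kept its direction in both comparisons with the reference. With local backgrounds as read, or scan day as a block, 0 genes, 0 factors and 0 wider pluripotency genes were called in either comparison by limma (unadjusted p under 0.05 for 1894 and 3029 genes with dox and 1966 and 5283 with dox+TCP). With the arrays of 1 group alone it was 0 of each for dox (5132 genes unadjusted), and 5918 genes for dox+TCP against 3291. Median centring called 6006 genes with dox (1130 lower, 4876 higher, against 1765 and 1352) and 5100 with dox+TCP (1103 lower, 3997 higher, against 1727 and 1564), and 4 factors with dox. With the replicate block 4882 and 5148 genes passed, against 3117 and 3291, with all 7 factors for dox+TCP (Nanog adjusted p = 0.0326); same-numbered deviations correlated at 0.472 over genes, but 2 pairs do not settle the pairing. Leaving out 1 array gave 0 to 4098 genes, 0 to 5 factors and 0 to 28 wider pluripotency genes with dox, and 0 to 5918, 0 to 6 and 0 to 28 with dox+TCP. The lone array left in a group is then assumed to vary like the other group. For dox+TCP against dox 0 genes were called by limma in each alternative (213 to 2821 unadjusted). There the Otx2 difference reversed to −0.0031 (offset 16), −0.021 (background limit 5 times the median), −0.011 (median centring), −0.36 (scanner ratios and deposited matrix) and −0.34 (scan day), and ran from −0.34 to 0.415 without 1 array; that of Utf1 reversed to −0.088 (scan day) and ran from −0.27 to 0.67 without 1 array. Fewer residual degrees of freedom apply to the block and leave-one-out fits; otherwise the cause was not tested. Slide as a random block was not run, since its correlation could not be estimated. Dim treated signal limits Otx2 and Foxd3.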
